A study of Rattus norvegicus with 25 samples.

Results

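Gingival RNA of 5 ZNP gel rats was compared with that of 5 sham rats, to describe what still differed from healthy gingiva after 4 weeks of a zinc oxide nanoparticle (ZNP) gel. The comparison used 10 of the 25 libraries of the study as its members, 5 in each group, chosen by their labels. All 30214 genes of the table entered, with each transcript without a symbol as its own entry. Of these, 16062 passed the filter on low values and were tested. The other 15 libraries, 5 each from the EP, Cur gel and Cur/ZNP gel groups, took part only in the shared estimate of the spread and as values set beside those of the ZNP gel rats.

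ZNP gel rats were wild-type Sprague-Dawley rats with experimental periodontitis, induced by silk ligatures at the maxillary first molars on both sides and by Porphyromonas gingivalis smeared on the silk. From 1 month after ligature they received 200 μL of methylcellulose gel with 2 mg/mL of zinc oxide nanoparticles in the periodontal pocket, weekly for 4 weeks. EP rats had the same ligature and bacteria. The labels of all groups repeat 1 protocol with weekly gel for 4 weeks, and whether the EP rats received a gel, and which, is not stated for them. Sham rats were of the same strain and genotype, had no periodontitis and received hydrogel as control. Ligature, bacteria and zinc oxide were therefore all present in ZNP gel rats and absent in sham rats, and their parts cannot be told apart in this comparison. Age is 6 weeks in the labels of all groups and 8 weeks in the methods of the study. Each group is a set of 5 rats with 1 library each.

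Reads per library ranged from 59749001 to 81791804 in ZNP gel and from 50690789 to 61490425 in sham, and values below are normalized reads, which are reads per gene divided by a size factor of the library. The mean was higher in ZNP gel (exact permutation test over 5 and 5 libraries, two-sided p = 0.0238, adjusted p = 0.0357 over 3 library measures). Sham libraries were less alike than ZNP gel libraries, with correlations of log2 values between 0.973 and 0.984 within ZNP gel and between 0.936 and 0.983 within sham. On the first principal component of the 10 libraries, which held 41.6% of the variance, ZNP gel libraries scored from -80 to -43.1, against -28.4 in sham 2, 3.21 in sham 5, 76.1 in sham 3, 89.8 in sham 1 and 164 in sham 4. The groups did not overlap on it (exact p = 0.00794, the smallest that 5 against 5 can give, adjusted p = 0.0238). Sham 1, 3 and 4 thus stood apart from the other 2 sham libraries, and results are given with and without them where that matters. In sham 4 the 10 highest genes took 51.0% of the reads, against 10.6 to 18.4% in the other 9 libraries.

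Markers of stratified oral epithelium, the main tissue of gingiva, were present in all 10 libraries, but at a far lower share of the reads in sham 4. Spinous and stratified keratins held 0.0967% of the reads of sham 4. They held 1.83 to 2.53% in ZNP gel and 2.06 to 3.69% in the other sham libraries. Basal keratinocyte and hemidesmosome genes held 0.110% in sham 4, 0.321 to 0.913% in ZNP gel and 1.53 to 2.64% in the other sham libraries. Krt5 and Krt14, keratins of basal cells, lay between 52638 and 134770 and between 41823 and 154190 normalized reads in ZNP gel, against 34833 to 844930 and 29142 to 626330 in sham, with the lowest sham value of each in sham 4. Krt13, a keratin of the suprabasal oral mucosa, lay between 231000 and 613210 in ZNP gel and between 31579 and 254390 in sham.

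The circadian clock is a feedback loop in which the activators Arntl (BMAL1), Clock and Npas2 switch on Per and Cry genes, whose proteins then repress them, through E-box elements of the DNA. Mitosis genes are switched on together before cell division, in part through the CHR element and CCAAT boxes of their promoters, and metallothionein genes respond to zinc through metal response elements (MREs) bound by MTF1. Gingival epithelium renews itself by division of its basal cells. The promoter windows of 6 genes from these groups are printed here, because clock and mitosis genes gave the most stable differences described below and because Mt2A is a zinc-responsive gene. They are RefSeq sequences of build GRCr8, 300 bases across the annotated start of transcription, read 5′ to 3′ on the strand of the gene, at chr2:186112197-186112496 (minus strand), chr9:99496944-99497243 (minus), chr10:84229405-84229704 (minus, 1 of 2 windows of the gene), chr10:103571896-103572195 (plus), chr5:137255750-137256049 (minus) and chr19:10838659-10838958 (minus). Capitals mark the E-box CACGTG in Ciart and Nr1d1, the D-box TTATGTAA, bound by the clock output factors, in Per2, the CHR TTTGAA and the CCAAT box CCAAT in Birc5 and Cdc20, and the MRE, searched as TGCACNC or TGCGCNC, in Mt2A, each on either strand.
Ciart: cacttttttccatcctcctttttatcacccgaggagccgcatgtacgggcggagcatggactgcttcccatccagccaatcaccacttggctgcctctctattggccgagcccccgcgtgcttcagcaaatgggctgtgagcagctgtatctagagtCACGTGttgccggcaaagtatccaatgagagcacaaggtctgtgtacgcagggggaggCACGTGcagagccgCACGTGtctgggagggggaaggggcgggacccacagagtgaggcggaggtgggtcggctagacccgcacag
Per2: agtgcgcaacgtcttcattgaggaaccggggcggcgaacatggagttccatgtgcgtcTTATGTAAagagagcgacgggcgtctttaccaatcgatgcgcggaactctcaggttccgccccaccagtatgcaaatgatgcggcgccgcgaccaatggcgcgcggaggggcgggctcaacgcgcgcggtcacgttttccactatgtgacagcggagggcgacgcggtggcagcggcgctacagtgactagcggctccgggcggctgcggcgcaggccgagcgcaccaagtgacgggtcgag
Nr1d1: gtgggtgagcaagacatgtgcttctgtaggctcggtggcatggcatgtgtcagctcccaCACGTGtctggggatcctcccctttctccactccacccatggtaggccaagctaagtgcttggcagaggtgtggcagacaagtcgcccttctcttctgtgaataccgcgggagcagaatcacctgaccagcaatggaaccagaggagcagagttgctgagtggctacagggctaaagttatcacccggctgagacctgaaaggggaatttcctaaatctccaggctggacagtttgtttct
Birc5: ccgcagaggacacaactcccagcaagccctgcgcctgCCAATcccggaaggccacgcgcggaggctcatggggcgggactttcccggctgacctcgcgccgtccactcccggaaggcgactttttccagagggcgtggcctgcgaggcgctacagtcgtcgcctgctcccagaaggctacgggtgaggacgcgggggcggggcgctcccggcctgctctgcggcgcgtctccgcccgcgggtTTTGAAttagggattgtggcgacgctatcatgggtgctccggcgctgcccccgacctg
Cdc20: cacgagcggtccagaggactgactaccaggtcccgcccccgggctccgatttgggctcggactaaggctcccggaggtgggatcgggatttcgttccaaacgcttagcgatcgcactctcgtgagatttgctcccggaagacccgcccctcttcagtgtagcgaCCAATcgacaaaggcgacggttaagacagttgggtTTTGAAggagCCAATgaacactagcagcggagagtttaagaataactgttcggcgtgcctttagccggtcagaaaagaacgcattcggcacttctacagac
Mt2A: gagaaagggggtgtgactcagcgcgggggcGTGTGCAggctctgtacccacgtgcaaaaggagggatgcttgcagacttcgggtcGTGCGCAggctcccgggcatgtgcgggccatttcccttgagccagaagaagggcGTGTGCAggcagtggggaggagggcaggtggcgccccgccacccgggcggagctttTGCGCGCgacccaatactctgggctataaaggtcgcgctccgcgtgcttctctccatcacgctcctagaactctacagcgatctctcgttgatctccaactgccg

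Such matches describe the letters only. A list gene counted as matched if any of its windows matched, whereas the share over all windows counts each window, which favours the lists. Nr1d1 for the E-box and Slc30a2 for the MRE matched in some of their windows and not in others. The E-box was found in 5 of the 16 clock genes with a window (31.2%), against 6.42% of all 33469 windows, and the D-box in 1 of them, Per2, against 0.893% of all windows. The CHR was found in 13 of 19 mitosis genes (68.4%), against 18.3% of all windows, and CCAAT in 16 of 19 (84.2%), against 37.5%. The MRE was found in 9 of 12 genes of zinc export and storage (75.0%), against 24.2%. No capital stretch overlaps another in the printed windows.

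Of the 16062 genes tested, 5150 (32.1%) passed an adjusted p of 0.05, with 2680 higher (16.7%) and 2470 lower (15.4%) in ZNP gel. In 2219 genes (13.8%) the libraries of ZNP gel did not overlap those of sham, lying above in 1131 (7.04%) and below in 1088 (6.77%). Called higher were the Per and Cry genes of the clock, 7 of 8 erythroid, 7 of 18 macrophage and 12 of 24 sarcomere genes. Called lower were 23 of 24 mitosis, 70 of 73 ribosomal protein and 9 of 18 autonomic neuron genes. The ribosomal protein list was made after the values were seen. In whole tissue, fewer cells of a type and less RNA per cell cannot be told apart.

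How many genes were called depended on the sham libraries. Without sham 1, 3 and 4 there were 334 calls (2.08%; 128 higher and 206 lower), in a fit with only 2 sham libraries left. With single libraries left out the count lay between 3731, without sham 3, and 6175, without sham 2. A set of 243 genes (1.51%), 91 higher and 152 lower, was called in the same direction with all libraries and under 20 alternatives. A fold minimum of 2, also tried, was not among these 20, and "every alternative" below means these 20. The set held 11 of 19 clock genes, 15 of 24 mitosis genes, 4 of 8 erythroid genes, 4 of 18 macrophage genes and 1 of 24 sarcomere genes. It held 0 members of the DNA replication, autonomic neuron, neuronal vesicle, interferon and complement lists. No gene's level was set against another's, since values are not per length.

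**Figure D1:**
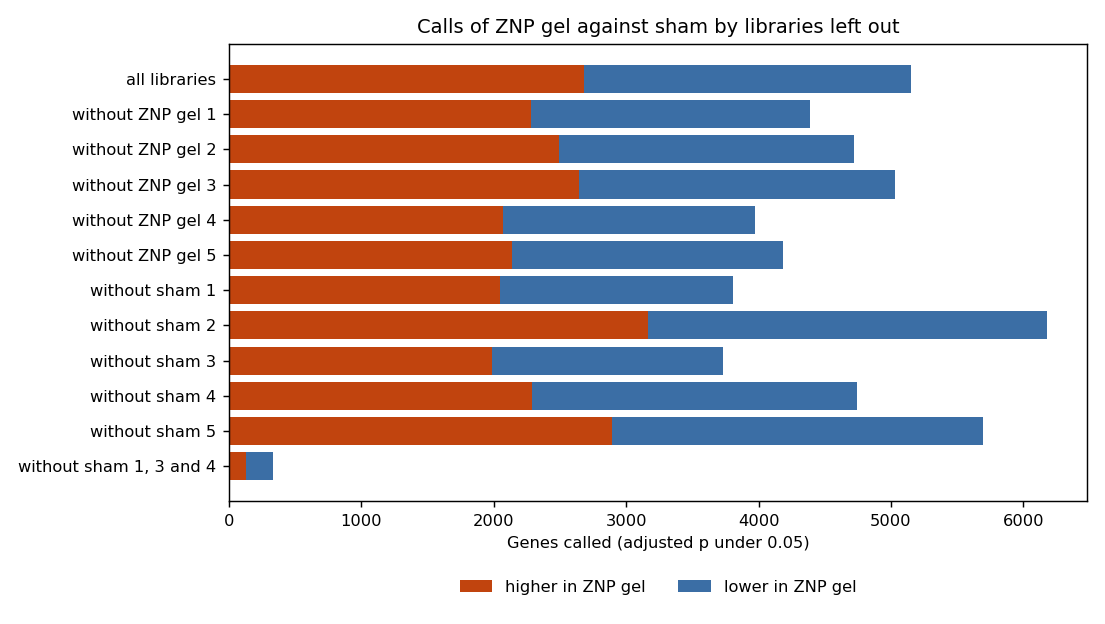
Number of genes called (x axis, adjusted p under 0.05) in ZNP gel against sham, higher and lower in ZNP gel stacked, with all libraries and with the named libraries left out (y axis). The bar falls to 334 genes when sham 1, 3 and 4 are left out together, and stays between 3731 and 6175 when any 1 library is.

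Clock genes differed in both arms of the loop. Of the 19 tested clock genes, 12 were higher and 3 lower in ZNP gel, beside 16.7% and 15.4% of all genes, with a median log2 difference of 1.09 against -0.0065 over all genes. Without sham 1, 3 and 4, 10 were called higher and 3 lower, and 11 of the 19 held under every alternative. With 1 library left out, 11 to 13 were called higher and 3 or 4 lower. The time of day at which the gingiva was taken is not given in the sources used here.

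The period genes, repressors of the loop, were higher. Per1, at chr10:55687050-55695994 on the plus strand of Rnor_6.0, the build of the files, had 5264, 5140, 6297, 5194 and 4965 normalized reads in ZNP gel, against 1321, 1533, 1733, 1187 and 2213 in sham. No library of one group reached the other, and the log2 difference was 1.78 (SE 0.15, limma adjusted p = 9.46e-07). Per2 had 7076, 7947, 9842, 10015 and 8668 in ZNP gel, against 1379, 895, 2562, 2224 and 2192 in sham, a log2 difference of 2.32 (SE 0.25, adjusted p = 1.75e-05). In EP, the median was 5693 for Per1 and 4964 for Per2. Per3 (log2 difference 1.52, adjusted p = 0.00046) and the cryptochromes Cry1 (1.72, adjusted p = 2.3e-05) and Cry2 (0.79, adjusted p = 0.00092), the partners of the period proteins, were higher as well. Cry1 lay between 1232 and 2010 in ZNP gel, 541 and 981 in EP, and 366 and 600 in sham. Its difference between ZNP gel and EP did not pass the test (log2 difference 0.998, adjusted p = 0.21).

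The activators were lower. Arntl, at chr1:178039063-178137465 (plus strand, Rnor_6.0), had 372, 308, 323, 419 and 396 normalized reads in ZNP gel, against 1738, 2705, 955, 1047 and 1156 in sham. Every ZNP gel library was below every sham library, and the log2 difference was -1.95 (SE 0.25, adjusted p = 6.1e-05). Npas2 had 269, 374, 317, 301 and 263 in ZNP gel, against 1239, 2380, 888, 781 and 892 in sham, with a log2 difference of -1.90 (adjusted p = 0.00031). Both were low in EP too, with medians of 296 for Arntl and 387 for Npas2. Clock itself did not pass the test (log2 difference 0.67, adjusted p = 0.43). Sham 4 had 177 reads and the other sham libraries 5204 to 7504, above most of the 4074 to 5762 in ZNP gel. Only sham 4 lay below the ZNP gel libraries.

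The output and accessory genes were mostly higher. Tef, a transcription factor driven by the clock, lay between 9775 and 11901 in ZNP gel and between 3231 and 7130 in sham, with a log2 difference of 1.17 (adjusted p = 0.00031). Ciart, a repressor of the clock whose window holds 3 E-boxes, had 689, 1092, 539, 358 and 607 in ZNP gel, against 165, 82.7, 408, 404 and 246 in sham, with ZNP gel 4 among the sham values (log2 difference 1.46, adjusted p = 0.0027). Bhlhe41 (1.63), Hlf (1.63), Bhlhe40 (0.86) and Rora (1.09) were called higher, and the calls of Hlf, Bhlhe40 and Rora ended without sham 1, 3 and 4. That of Rora also ended without sham 1 alone (adjusted p = 0.056). Dbp, another output factor, was not called (log2 difference 0.59, adjusted p = 0.17), with 6643 to 15850 in ZNP gel and 2681 to 14826 in sham.

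Nr1d1 (REV-ERBα), which represses Arntl, went the other way from the Per genes. It had 5957, 4937, 5861, 3079 and 4066 normalized reads in ZNP gel, against 6689, 8713, 13790, 8598 and 9913 in sham, all lower, with a log2 difference of -0.998 (SE 0.18, adjusted p = 0.00086). In EP it lay between 8676 and 12230, and the log2 difference between EP and sham was 0.14 (adjusted p = 0.57). Its log2 difference between ZNP gel and EP was -1.14 (adjusted p = 0.045). This was the only gene of 16062 (0.00623%) called between ZNP gel and EP by limma, where 481 passed an unadjusted p of 0.05, and edgeR called 0 and DESeq2 64. The call did not hold when single libraries were left out. Nr1d1 kept it without ZNP gel 1 and without ZNP gel 3, and lost it without any other library of these 2 groups, with adjusted p between 0.032 and 0.27 and log2 differences between -1.23 and -0.99.

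**Figure D2:**
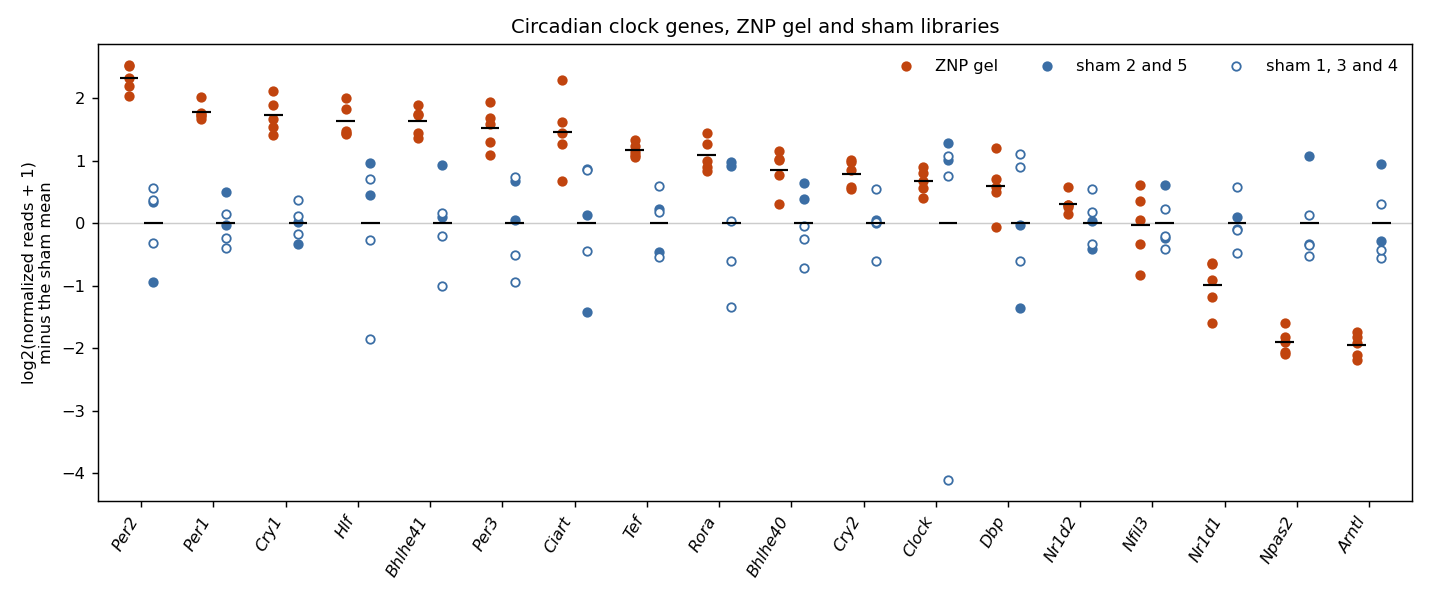
Each point is 1 library (x axis, 18 of the 19 tested clock genes with ZNP gel left of sham; y axis, log2 of normalized reads + 1 minus the sham mean of the gene), and bars are group means. Open circles are sham 1, 3 and 4. Per2 and Per1 lie above sham and Arntl, Npas2 and Nr1d1 below it with no overlap. Clock, Dbp, Nr1d2 and Nfil3, which were not called, overlap, as do some called genes such as Ciart.

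Mitosis genes were lower almost as a whole. Of 24 tested, 23 were called lower and 0 higher, beside 15.4% of all genes lower, with a median log2 difference of -1.43. Plk1, a kinase of mitotic entry, was the only one not called (log2 difference -0.37, adjusted p = 0.57). Without sham 1, 3 and 4, 15 remained called lower and the median was -1.39, and 15 held under every alternative. With 1 library left out, 21 to 23 were called. In EP against sham, which shares the sham libraries, 23 were called lower and the median was -1.42.

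Birc5 (survivin), a subunit of the complex that guides chromosome separation, at chr10:106856097-106864413 (plus strand, Rnor_6.0), had 398, 195, 258, 287 and 177 normalized reads in ZNP gel, against 1828, 1008, 770, 770 and 1301 in sham. The groups did not overlap, and the log2 difference was -2.08 (SE 0.27, adjusted p = 6.49e-05). Ube2c, a ubiquitin-conjugating enzyme of mitotic exit, had 389, 198, 271, 279 and 204 in ZNP gel, against 1623, 730, 1437, 1020 and 994 in sham, a log2 difference of -2.10 (adjusted p = 0.00019). Cdc20, the activator of the ubiquitin ligase that starts chromosome separation, lay between 416 and 680 in ZNP gel and between 864 and 2206 in sham (log2 difference -1.65, adjusted p = 0.00037). The mitotic kinase Aurka lay between 219 and 301 in ZNP gel, 246 and 344 in EP, and 569 and 944 in sham (log2 difference -1.46, adjusted p = 0.00013). Mki67, the marker of dividing cells, lay between 1372 and 3636 in ZNP gel and between 5484 and 10378 in sham, with a log2 difference of -1.50 (adjusted p = 0.00064). Other cell division genes were among those with the smallest p, namely Cdca8 (-1.41), Pttg1 (-2.20), Knstrn (-2.01), Cenpw (-1.98), Ckap2 (-1.74) and Nusap1 (-1.70), each with no overlap between the groups.

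Genes of DNA replication, the step before mitosis, were called in part. Of 24 tested, 5 were lower and 0 higher, beside 15.4% of all genes lower, with a median of -0.20, and no call was left without sham 1, 3 and 4, where the median was -0.01. With 1 library left out, 3 to 7 were called, 3 of them without ZNP gel 4, ZNP gel 5, sham 1 or sham 3. Tk1, an enzyme of thymidine salvage, lay between 719 and 1264 in ZNP gel and between 1512 and 2669 in sham (log2 difference -0.91, adjusted p = 0.0049). Pcna, the clamp of DNA polymerase, lay between 3445 and 3956 in ZNP gel and between 3030 and 5881 in sham (log2 difference -0.19, adjusted p = 0.30). In EP against sham 14 of the 24 were called lower, and Pcna lay between 2200 and 3197 in EP.

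**Figure D3:**
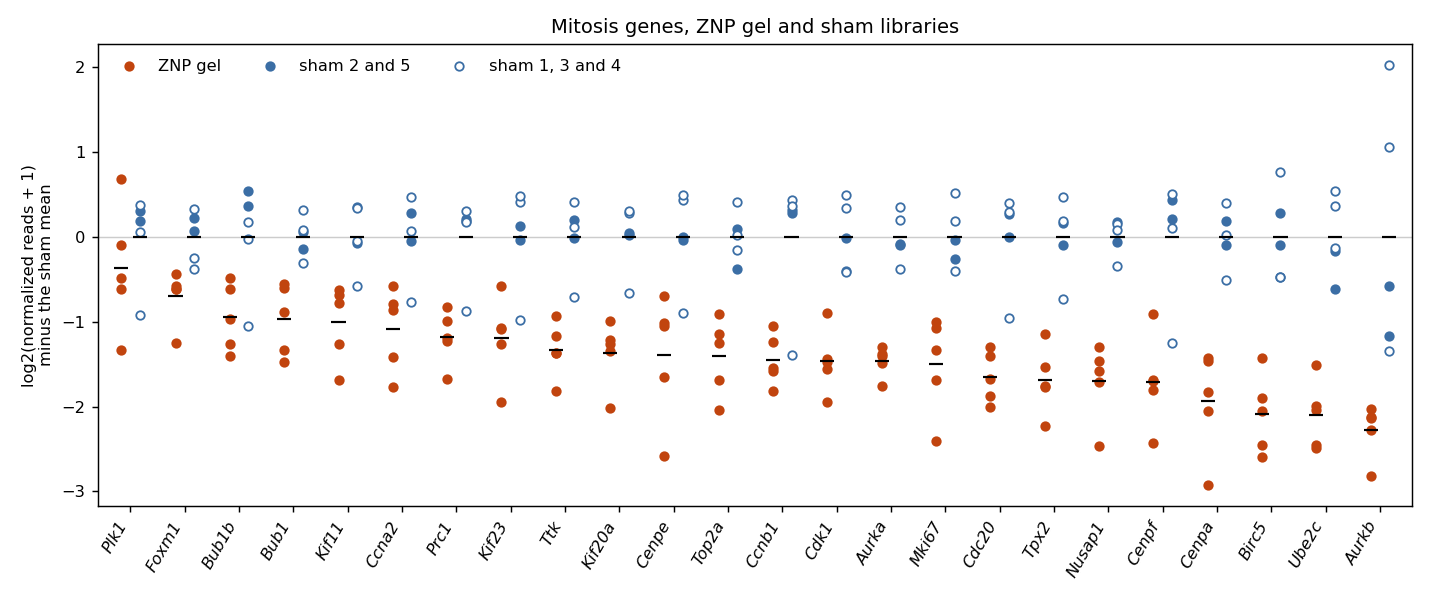
Each point is 1 library (x axis, the 24 tested mitosis genes with ZNP gel left of sham; y axis, log2 of normalized reads + 1 minus the sham mean of the gene), and bars are group means. Open circles are sham 1, 3 and 4. Group means are lower in ZNP gel for all 24 genes, with log2 differences from -0.37 for Plk1, the gene not called, at the left to -2.27 for Aurkb at the right.

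Ribosomal protein genes, a list made after the values were seen, were lower. Of 73 tested, 70 were called lower and 0 higher, beside 15.4% of all genes lower, with a median log2 difference of -0.90. In 62 every ZNP gel library lay below every sham library, beside 6.77% of all genes. Nothing is read from these counts, since values of the members were known when they were listed. Rpl35 had 25531, 26909, 25908, 25897 and 29373 normalized reads in ZNP gel, against 77923, 39298, 108990, 61745 and 39607 in sham, a log2 difference of -1.18 (adjusted p = 0.00049). The highest sham values were in sham 1, 3 and 4. Without those libraries the median was -0.43 and 9 of the 73 remained called lower.

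Part of the macrophage genes were higher, among them the endocytic receptors Cd163, Mrc1, Msr1 and Stab1. Of 18 macrophage genes tested, 7 were called higher and 0 lower, beside 16.7% of all genes higher, with a median log2 difference of 0.88. Without sham 1, 3 and 4, 5 were called higher, and 4 held under every alternative. Without sham 4 alone, 12 were called higher and 1 lower. Cd163, the haemoglobin scavenger receptor, had 3043, 729, 2119, 1613 and 1637 normalized reads in ZNP gel, against 146, 191, 237, 504 and 456 in sham. The groups did not overlap, and the log2 difference was 2.59 (SE 0.38, adjusted p = 0.00022). In EP the median was 805, with a range of 629 to 1552.

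The mannose receptor Mrc1 lay between 1399 and 4030 in ZNP gel and between 532 and 1764 in sham (log2 difference 1.71, adjusted p = 0.00078), with sham 4 above the lowest ZNP gel library. Msr1 (2.37), a scavenger receptor, and Folr2 (1.73), a folate receptor of resident macrophages, were higher with no overlap. In contrast, the macrophage markers Cd68 (log2 difference 0.31, adjusted p = 0.48), Lyz2 (0.12, adjusted p = 0.87) and Siglec1 (1.22, adjusted p = 0.069) were not called. F13a1, the A subunit of coagulation factor XIII, made by macrophages among other cells, was next to Per1 in p. It had 1893, 1339, 2968, 2291 and 2802 normalized reads in ZNP gel, against 188, 281, 130, 112 and 240 in sham, a log2 difference of 3.59 (SE 0.32, adjusted p = 9.46e-07). Lyve1, a hyaluronan receptor of lymphatic vessels and some macrophages, lay between 1629 and 2922 in ZNP gel and between 328 and 728 in sham (log2 difference 2.14).

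Erythroid genes were higher in ZNP gel, with 7 of 8 tested called higher, beside 16.7% of all genes higher. Without sham 1, 3 and 4, 6 were called higher, and with any 1 library left out 6 or 7 were. Hbb, a β-globin, had 5210, 4653, 7606, 26152 and 6843 normalized reads in ZNP gel, against 1942, 1064, 795, 2238 and 1170 in sham (log2 difference 2.58, adjusted p = 0.00016). Globin genes are near copies of each other, so reads may be divided among Hbb, Hbb-bs, Hba-a1, Hba-a2 and Hba-a3 in ways not examined. The erythroid list held between 0.0276 and 0.137% of the reads in ZNP gel and between 0.00625 and 0.0149% in sham. Alas2, an enzyme of haem synthesis in red cell precursors, lay between 93.4 and 550 in ZNP gel and between 0 and 61.0 in sham.

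Several genes known to respond to glucocorticoids were among the clearest rises; this list of 18 was made after the values were seen. Of these, 11 were called higher and 0 lower, beside 16.7% of all genes higher, with a median log2 difference of 0.998, and nothing is read from that count, since values of the members were known when they were listed. Without sham 1, 3 and 4, 6 were called higher, and 5 held under every alternative. Zbtb16, a zinc finger repressor, had 1692, 1175, 1580, 2399 and 2372 normalized reads in ZNP gel, against 56.9, 193, 111, 110 and 257 in sham, a log2 difference of 3.78 (SE 0.43, adjusted p = 3.24e-05). Tsc22d3 (GILZ) lay between 8992 and 14643 in ZNP gel, 6376 and 10176 in EP, and 3587 and 6551 in sham (log2 difference 1.38, adjusted p = 6.1e-05). Pdk4, a kinase that limits glucose oxidation and is also abundant in muscle, lay between 4739 and 23183 in ZNP gel, 781 and 8045 in EP, and 118 and 523 in sham (log2 difference 5.17, adjusted p = 0.00035). None of these genes differed between ZNP gel and EP by the test (log2 difference 1.201 for Zbtb16, 0.63 for Tsc22d3 and 1.57 for Pdk4, each with an adjusted p of 1). Sgk1, another such gene, had a log2 difference of -0.05 (adjusted p = 0.84).

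Enzymes of other pathways were among the smallest p. Gda, a guanine deaminase, lay between 4225 and 6942 in ZNP gel and between 467 and 2030 in sham (log2 difference 2.70). Nampt, which makes a precursor of NAD, lay between 5656 and 8384 in ZNP gel, 3701 and 5915 in EP, and 2464 and 2944 in sham (log2 difference 1.43, adjusted p = 6.1e-05). Gsta1, a glutathione transferase, lay between 3214 and 8773 in ZNP gel and between 908 and 1813 in sham (log2 difference 2.06). Epm2a (2.89), a phosphatase of glycogen, and Hivep3 (2.05) were higher without overlap as well. Hnrnpl (-0.79), an RNA-binding protein, and Atp1b3 (-1.29), a subunit of the sodium pump, were lower.

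Skeletal muscle genes gave the largest rises. Of 24 sarcomere genes tested, 12 were called higher and 0 lower (median log2 difference 2.94), beside 16.7% of all genes higher. Of 19 genes of muscle calcium and energy handling, 13 were higher and 0 lower (median 3.09). The sarcomere list held between 0.716 and 5.07% of the reads in ZNP gel, against 0.835% in sham 1, 0.334% in sham 2, 0.390% in sham 3, 0.0344% in sham 4 and 0.0659% in sham 5. Myh8, the perinatal myosin heavy chain, had 2023, 967, 1320, 4569 and 10274 normalized reads in ZNP gel, against 306, 212, 34.1, 0 and 14.7 in sham, a log2 difference of 6.33 (SE 1.49, adjusted p = 0.0039). Mylk4, a kinase of the myosin light chain, had 1587, 643, 1109, 2414 and 4405 in ZNP gel, against 162, 71.1, 45.9, 0 and 0 in sham. Both genes were separate between the groups, and Mylk4 had a log2 difference of 6.87 (adjusted p = 0.0020). Sln, Agbl1, Smyd1, Myoz3 and Alpk2, mostly muscle genes, were also among the 10 largest rises, between 4.97 and 5.87. Of the sarcomere and calcium genes, 1 and 0 were called without sham 1, 3 and 4, although the medians were 3.82 and 3.83 there, and Mylk4 held under every alternative. The number of sarcomere genes called was 5 without ZNP gel 5 and 6 without ZNP gel 1, ZNP gel 4, sham 4 or sham 5, and that of calcium and energy genes 5 to 8 without the same libraries. How much muscle each sample contained was not measured, and its part in the other differences was not tested.

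Autonomic neuron genes gave the largest falls, and these rested on sham 1, 3 and 4. Of 18 autonomic neuron genes tested, 9 were lower and 1, the noradrenaline transporter Slc6a2, higher (median -3.49), beside 15.4% of all genes lower. Of 27 genes of neuronal vesicle release and cytoskeleton, 14 were lower and 0 higher (median -2.99). Vip, a neuropeptide, had 11.4, 0, 13.2, 6.97 and 15.4 normalized reads in ZNP gel, against 24571, 180, 57245, 20908 and 79.6 in sham (log2 difference -8.82, adjusted p = 0.0083). Snap25, a vesicle fusion protein, lay between 3.42 and 17.9 in ZNP gel, against 6314, 92.5, 13132, 5793 and 51.1 in sham. Sham 1, 3 and 4 were high and sham 2 and 5 low for both. With 1 library left out, the autonomic genes called lower were 4 without sham 3, 5 without sham 4, and 13 and 12 without sham 2 and sham 5, and the vesicle genes 8 without sham 3, 9 without sham 1 and 21 without sham 2 or sham 5.

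Slc18a3, the vesicular acetylcholine transporter, and Htr3a, a serotonin receptor, were at 0 in all ZNP gel libraries. Against a floor of 3 counts per library, Slc18a3 was at least 268-fold lower in ZNP gel (mean 680 in sham) and Htr3a at least 154-fold lower (mean 391 in sham). Both bounds rest on sham 1, 3 and 4. Sham 2 and 5 had 3.56 and 3.93 for Slc18a3 and 5.33 and 3.93 for Htr3a, near the floor, and without sham 3 alone the bounds were 131-fold for Slc18a3 and 79.1-fold for Htr3a. No gene of either neuronal list was called without sham 1, 3 and 4, where the medians were -0.04 and -0.41. The neuronal vesicle list held between 0.0134 and 0.0234% of the reads in ZNP gel, against 0.145% in sham 1, 0.0241% in sham 2, 0.2765% in sham 3, 0.0518% in sham 4 and 0.01945% in sham 5.

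Nasal gland genes stood out in sham 4 alone. They held 22.3% of its reads, against 0.0323 to 0.190% in ZNP gel and at most 0.0458% in the other sham libraries, and 0 of 14 tested were called by limma. Obp2a, an odorant-binding protein, lay between 675 and 5246 normalized reads in ZNP gel, and had 12316000 in sham 4 and 827 to 3656 in the other sham libraries. An EP library reached 11963000. Without sham 4, 4740 genes were called in all. Salivary gland genes held 4.673, 11.25, 0.4222, 5.633 and 4.797% of the reads of ZNP gel 1 to 5. In sham 1 to 5 they held 0.2721, 4.488, 0.017, 0.3608 and 3.617%. All 8 tested had log2 differences above 0 (median 2.803), and 1 was called higher, beside 16.7% of all genes. Without sham 1, 3 and 4, 0 were called and the median was 0.1799. The part of salivary gland in the other differences was not tested.

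**Figure D4:**
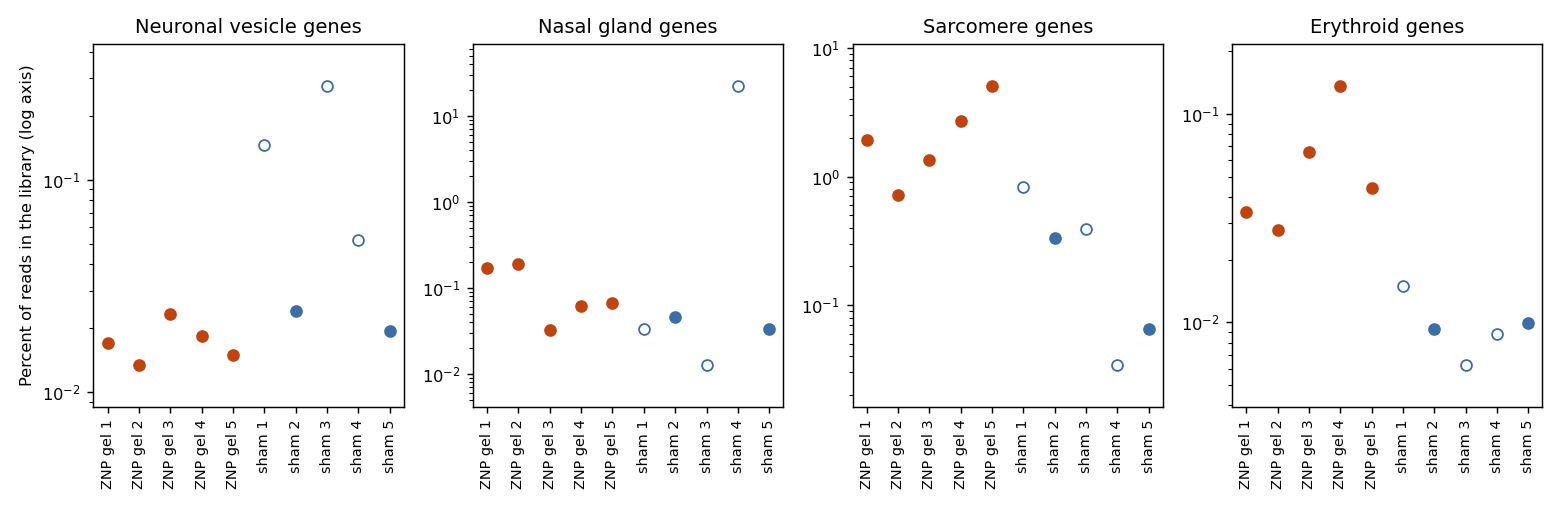
Share of the reads of each library (y axis, percent on a log axis with its own range in each panel) held by the neuronal vesicle, nasal gland, sarcomere and erythroid lists, with ZNP gel libraries left of sham libraries (x axis). Open circles are sham 1, 3 and 4, which hold the highest neuronal shares, and sham 4 holds 22.3% in nasal gland genes.

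Genes of the oral epithelial surface were higher in part, but not called against sham 2 and 5 alone. Of 21 cornified envelope genes, 8 were called higher and 0 lower (median log2 difference 1.02), beside 16.7% of all genes higher and 15.4% lower. Of these 21, 0 were called without sham 1, 3 and 4 (median -0.06). Sprr3, a precursor of the envelope, had 16116, 18026, 17912, 21389 and 26267 normalized reads in ZNP gel, against 1627, 10445, 1416, 555 and 4602 in sham, a log2 difference of 3.11 (adjusted p = 0.0012). Krt4, a suprabasal keratin, lay between 188600 and 579510 in ZNP gel and between 3915 and 217290 in sham (log2 difference 2.98, adjusted p = 0.0087). Sham 2 was the highest sham library for both, and both calls ended without sham 1, 3 and 4. Krt4 belongs to a list of 13 tested spinous and stratified keratins, of which 4 were called higher and 0 lower. The median log2 difference of that list was -0.285, and 5 of the 13 genes were above 0. Without sham 4, 3 of them were called higher and 3 lower. Without sham 1, 3 and 4, 0 were called and the median was -1.53. Of 13 genes of basal keratinocytes and hemidesmosomes, 3 were lower and 0 higher (median -0.70), with 7 lower without sham 4 and 1 without ZNP gel 5 or sham 3, whereas Krt5 was not called (log2 difference -1.43, adjusted p = 0.056).

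Genes of matrix and bone were called in both directions, beside 16.7% of all genes called higher and 15.4% lower, and 2 calls were left in the 5 lists without sham 1, 3 and 4. Of 25 proteoglycan and crosslinking genes, 8 were higher and 1 lower (median 0.33), and of 20 matrix proteases and inhibitors, 5 were higher and 1 lower (median 0.42). With 1 library left out the proteoglycan genes called higher were 5 without ZNP gel 4, sham 1 or sham 3 and at most 11, and the proteases at most 8, without ZNP gel 2 or sham 5. Of 18 collagen and fibroblast genes, 3 were higher and 2 lower (median 0.20), shares near those of all genes, and Col1a1, a chain of type I collagen, was not called (log2 difference -0.38, adjusted p = 0.42). Of 18 osteoblast genes, 2 were called higher and 3 lower, and 2 of the 18 log2 differences were above 0 (median -1.05). Without sham 1, 3 and 4, 1 osteoblast gene was called higher and 0 lower, and the median was -0.49. Of 16 genes of osteoclasts and the RANKL axis, 5 were higher and 0 lower, namely Csf1, Csf1r, Clcn7, Itgb3 and Traf6. Of these 16, 3 were called without ZNP gel 1, ZNP gel 4, ZNP gel 5 or sham 3, and 0 by limma without sham 1, 3 and 4 (median 0.09). Ctsk, the collagenase of osteoclasts, lay between 2194 and 4566 in ZNP gel and between 2433 and 5439 in sham (log2 difference -0.34, adjusted p = 0.42). Mmp13, a collagenase, lay between 65.0 and 1574 in ZNP gel and between 197 and 8017 in sham (log2 difference -2.91, adjusted p = 0.041), with overlap. Its call ended without sham 1, 3 and 4 (adjusted p = 0.62) and without sham 4 alone (adjusted p = 0.11).

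Of the immune lists, complement, interferon-stimulated and Toll-like receptor genes were higher in part, beside 16.7% of all genes higher. Of 26 Toll-like receptor and NF-kB genes, 9 were called higher and 1 lower (median 0.39), and 0 were called without sham 1, 3 and 4. With 1 library left out, 6 to 9 of them were called higher. Complement had 8 of 25 called higher and 0 lower (median 0.89), with 13 higher without sham 4 and 5 without sham 3. Of the complement genes, 1 was still called without sham 1, 3 and 4. C6, of the membrane attack complex, lay between 420 and 1524 in ZNP gel and between 48.5 and 235 in sham (log2 difference 2.84, adjusted p = 0.00049). Interferon-stimulated genes had 7 of 24 called higher and 0 lower (median 0.90), beside 16.7% of all genes higher, with 0 called without sham 1, 3 and 4, 3 called without ZNP gel 1 or sham 1 and 4 without sham 2 or sham 3. Ifit3, an interferon-induced inhibitor of viral RNA, had 13115 in ZNP gel 1 and 460 to 773 in the other ZNP gel libraries, against 136 to 389 in sham (log2 difference 2.06, adjusted p = 0.028, and 0.077 without ZNP gel 1).

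Genes of T, natural killer, B and plasma cells showed almost no calls, beside 16.7% of all genes called higher and 15.4% lower. Of 22 T and natural killer cell genes, 1, Cd4, was higher and 0 lower, and of 19 B and plasma cell genes, 0 were called by limma (median -0.85). Of 28 cytokine and chemokine genes, Il1a and Ccl11 were higher and Cxcl14 lower. Ccl11 (eotaxin), a chemoattractant of eosinophils, lay between 3810 and 8620 in ZNP gel and between 1394 and 3936 in sham (log2 difference 1.23, adjusted p = 0.0043). Il1b lay between 291 and 2982 in ZNP gel and between 226 and 799 in sham (log2 difference 0.36, adjusted p = 0.78). Of 13 mast cell genes, 6 were higher and 0 lower (median 1.07), beside 16.7% of all genes higher. Among the 6 was the tryptase Tpsb2 (log2 difference 1.86, limma adjusted p = 0.0016). Without sham 1, 3 and 4, 0 mast cell genes were called.

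Genes of zinc handling moved in both directions, and none was called without sham 1, 3 and 4. Of 14 tested genes of zinc export, storage and metallothioneins, 3 were higher and 3 lower, beside 32.1% of all genes called, with a median log2 difference of 0.10, and of 13 zinc importers 0 were called by limma (median -0.10). Mt2A, a zinc-binding metallothionein, had 5621, 4156, 2863, 3377 and 3749 normalized reads in ZNP gel, against 12632, 7363, 16061, 2632 and 6198 in sham. The groups overlapped through sham 4, and the log2 difference was -0.97 (SE 0.36, adjusted p = 0.046). The call ended without sham 3 (adjusted p = 0.15). Mt1 had a log2 difference of -0.62 (adjusted p = 0.20), and Mt1m was lower (-1.48, adjusted p = 0.018, and 0.069 without sham 3). Of the 3 genes called lower in the list, 1 was left without ZNP gel 4, sham 1 or sham 3. Without sham 4, 2 genes of the list were called higher and 4 lower, and of the zinc importers 0 were called higher and 2 lower.

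Slc30a1, the zinc exporter of the cell surface, had 1893, 1784, 1569, 1858 and 1462 normalized reads in ZNP gel, against 668, 2006, 888, 451 and 1706 in sham (log2 difference 0.79, adjusted p = 0.023). Sham 2 and 5 lay within the range of ZNP gel or above it, and the log2 difference without sham 1, 3 and 4 was -0.12 (adjusted p = 0.64). The call also ended without sham 1 alone (adjusted p = 0.076). Of the other zinc transporters, Slc30a9 was higher (0.52) and Slc30a6 lower (-0.59). Mtf1, the zinc-sensing transcription factor, had 0.73 with all libraries (adjusted p = 0.013) and 0.14 without those (adjusted p = 0.76).

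Of 24 NRF2 and antioxidant genes, 4 were higher and 3 lower (median -0.03; 1 lower without sham 3), shares near the 16.7% and 15.4% of all genes. Sod2, the mitochondrial superoxide dismutase, had a log2 difference of 1.32 (adjusted p = 0.0041), and Hmox1, haem oxygenase, 0.91 (adjusted p = 0.0087), whereas Nqo1 was not called (-0.16, adjusted p = 0.73). Gsta1 alone of this list held under every alternative. Heat shock had 1 of 15 higher and endoplasmic reticulum stress 2 of 22 higher and 1 lower, with 7 higher without sham 4.

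**Figure D5:**
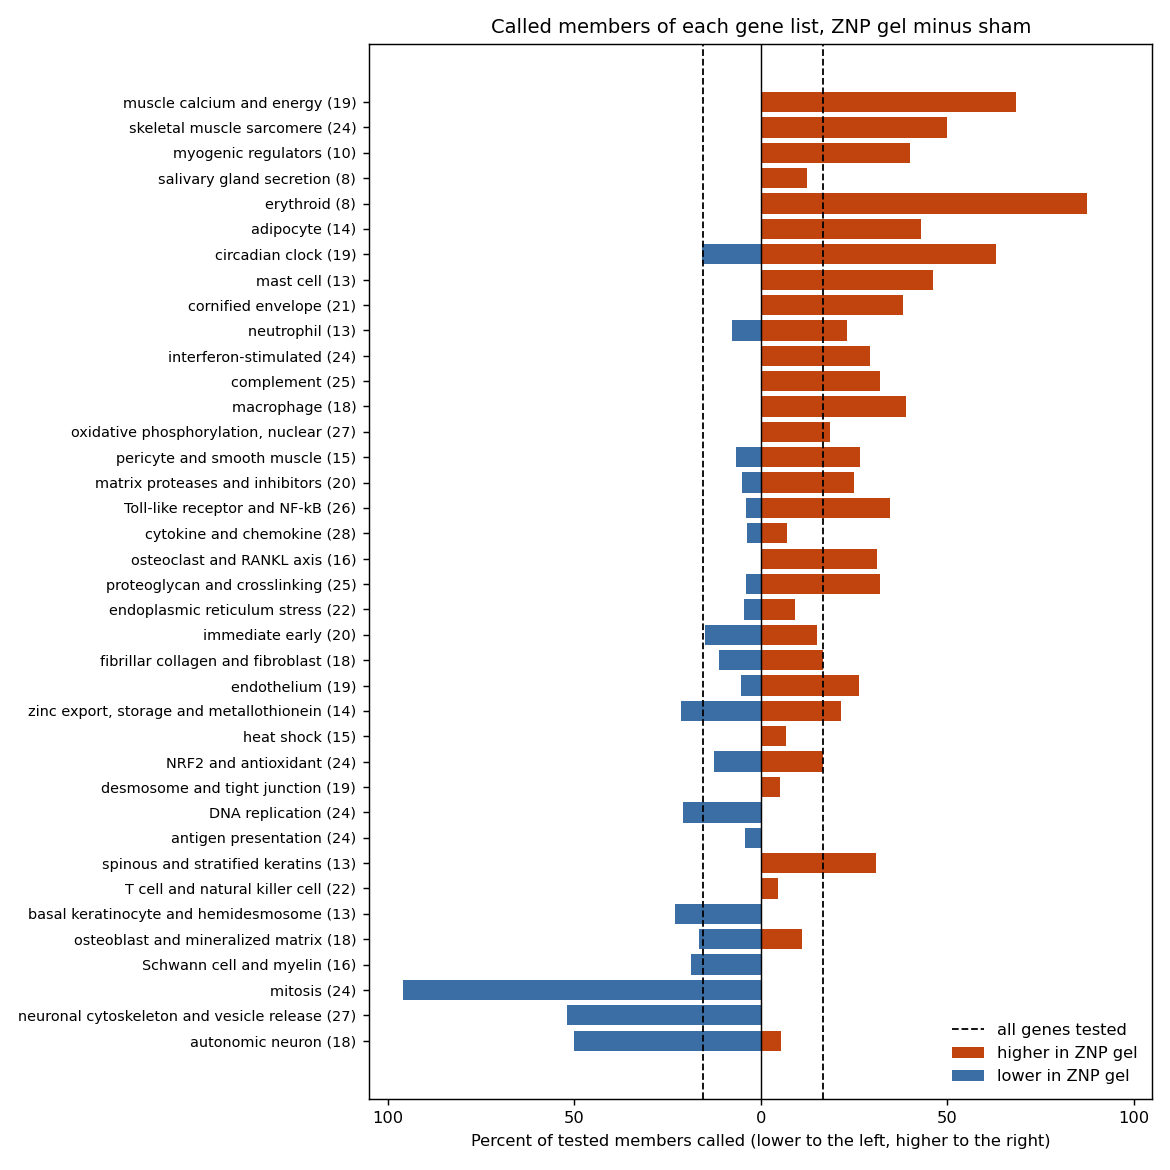
Percent of the tested members of each list (y axis, number tested in parentheses) called higher (to the right) and lower (to the left) in ZNP gel, ordered by median log2 difference, for lists with at least 1 call. Dashed lines are the 16.7% and 15.4% of all genes called higher and lower. Mitosis genes reach 23 of 24 lower and erythroid genes 7 of 8 higher.

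Of the genes the study named, Ceacam1, a cell adhesion receptor, lay between 884 and 3400 normalized reads in ZNP gel and between 542 and 4677 in sham (log2 difference 0.53, adjusted p = 0.45). Cd47 (0.21), Tnf (0.39), Bglap (osteocalcin, -1.58) and Tnfrsf11b (osteoprotegerin, 0.83) were not called either, and Il4 fell below the filter.

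Set beside the other groups, all of which share these sham libraries in their contrasts, 6039 genes were called in EP against sham, 6103 in Cur gel against sham and 6366 in Cur/ZNP gel against sham, beside the 5150 of ZNP gel. Between ZNP gel and Cur gel limma called 0 genes, with 183 at an unadjusted p under 0.05, while edgeR called 0 and DESeq2 12. Between ZNP gel and Cur/ZNP gel limma called 0, with 820 at an unadjusted p under 0.05, while edgeR called 0 and DESeq2 24.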

How the data were processed

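Total RNA (TRIzol) was depleted of ribosomal RNA, made into stranded libraries and run on a NovaSeq. The deposited signal is, for each Ensembl transcript of Rnor_6.0, a read number that the authors divided by 1 DESeq2 size factor per library; the aligner is not given in the sources used here. Whole reads were recovered from the steps of the values (100% within 0.01). Rows were summed per symbol from 41078 transcripts, of which 396 had no symbol and were kept as their own entries. The 840 blank lines were left out, and 47 tested symbols lie on several chromosomes. The filter asked for 2 CPM or more in 1 library or more. limma 3.58.1 (R 4.3.3) was fitted on log2(value + 1), with a robust trend, over all 25 libraries and without a block, and p-values were Benjamini-Hochberg adjusted, two-sided, at 0.05. Fold changes of low genes are understated on this scale. On the recovered reads, edgeR 4.0.16 called 5237 genes and DESeq2 1.42.0 6238. Counts of 0 were bounded by 3 counts per library, for counting error only.

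The other alternatives were no filter, the filterByExpr filter, 10 libraries only, a replicate block, pseudocounts of 0.5 and 8 and TMM scaling. A fold minimum of 2, each library left out and sham 1, 3 and 4 left out were tried as well. Genes said to hold under every alternative held under the 20 settings other than the fold minimum. Members and lists were chosen with earlier results of these data known. Genes were named by rule: among called genes with a symbol, non-overlapping groups and a mean log2 CPM of 1 or more, the 10 largest rises and falls and the 10 smallest p each way; up to 4 called members of each list (2 tested ones where none was called); and the genes named by the study. Alas2, Aurkb, Bhlhe40, Bhlhe41, Cd68, Cdc20, Ciart, Clock, Col1a1, Cry2, Ctsk, Dbp, Folr2, Hba-a3, Hlf, Ifit3, Il1b, Itgb3, Krt14, Krt5, Lyz2, Mki67, Mmp13, Mt1, Mt2A, Nfil3, Npas2, Nqo1, Nr1d1, Nr1d2, Obp2a, Pcna, Per3, Plk1, Rora, Rpl35, Sgk1, Siglec1, Slc30a1, Slc6a2, Tef and Tsc22d3 were chosen after their values were seen. A few list members are counted but not reported here by name. Exact permutation tests were run on reads and 2 principal components only, and shares of reads are descriptions. Promoter sequences are from RefSeq (GRCr8), with a window for 16 of 19 clock genes, 19 of 24 mitosis genes and 12 of 14 zinc export genes.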

Additional observations from a re-analysis of the deposited data

Results flagged for a closer look

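Within the 5 libraries of a group, 1 library lay far from the others in some of the named genes, by a gap to its neighbour, as a share of the group's range, past Dixon's critical value for 5 values, which chance gives in about 1 in 20 groups. On the log2 scale, ZNP gel 1 was the highest of its group for Nrsn1 (1.000), Ddx58 (0.867), Msr1 (0.779), Ifih1 (0.742) and Cxcr2 (0.712), the value being that share. ZNP gel 3 was the highest for Slc5a7 (1.000), Phex (0.881), Per1 (0.754) and Ccl11 (0.744) and the lowest for Bpifb3 (0.825). The flags of Nrsn1 and Slc5a7 lay near the floor, with 3.25 and 4.94 normalized reads against 0 in the other ZNP gel libraries. ZNP gel 4 was the highest for Tubb3 (0.734), Hbb (0.715) and Dusp1 (0.715). ZNP gel 2 was the lowest for Vip (0.742) and Cxcl14 (0.733), and ZNP gel 5 the lowest for Odam (0.849), with 0 reads.

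Sham 4 was the lowest of its group for Mstn (0.838), Junb (0.809), Sdc1 (0.785), Tpsb2 (0.746) and Alpk2 (0.726) and the highest for Slc30a6 (0.734) and Cat (0.723). Sham 3 was the lowest for C4b (0.827). In library measures, sham 4 had the highest share of reads in the 10 highest genes (51.0%, gap 0.867), and ZNP gel 5 the highest mitochondrial share (14.8%, gap 0.713).

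Nr1d1 differed between ZNP gel and EP under the same contrast with sham, with a log2 difference of -1.14 and an adjusted p of 0.0448 by limma. The call was lost without 8 of the 10 libraries of the 2 groups, left out in turn.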

How the results depend on the processing

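Beside the 5150 genes called with all libraries, 1954 were called in a fit of the 10 libraries only (1078 higher, 876 lower), 2221 with a fold minimum of 2 (1572 higher, 649 lower) and 334 in a fit without sham 1, 3 and 4 (128 higher, 206 lower). The first has fewer samples to estimate the spread and the last has 2 sham libraries. With 1 library left out the count lay between 3731 and 6175, with 1985 to 3166 higher and 1746 to 3009 lower. Under the other alternatives the counts lay within 1.5 times the main ones. Of 155 named genes that were called, 119 lost the call and 1 changed direction without sham 1, 3 and 4, and 46 lost it with 10 libraries only. Reversed log2 differences were -0.35 for Rgs5 and 0.044 for Bglap without sham 1, 3 and 4, and -0.0068 for Tnf without ZNP gel 1 (up to 0.76, without sham 1); the cause was not tested. TMM scaling moved the median of all genes by 0.0167. The tests between ZNP gel and the other ligature groups by edgeR and DESeq2, and those with 1 library left out between ZNP gel and EP, were chosen after seeing the data. Between ZNP gel and EP edgeR called 0 genes and DESeq2 64, beside 1 by limma and 0 to 1 with 1 library left out, and DESeq2 called 12 against Cur gel and 24 against Cur/ZNP gel, beside 0 by limma.

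Rats share a number between the groups but nothing says that a number pairs them. Libraries of 1 number deviated together with correlations between -0.193 and 0.177, and 1 of 5 correlated best with its own number. With a replicate block 5112 genes were called (2681 higher, 2431 lower), and 2 of the 155 named genes lost the call.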
